A study of Mus musculus with 8 samples.

Results

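The guanylate-binding proteins (GBPs) and the immunity-related GTPases (IRGs) were followed in 4T1 cells, a mouse mammary carcinoma line derived from a BALB/c tumour, after knockdown of the kinase ERK5 or of its activator MEK5. The 10 genes described, 6 GBPs and 4 IRGs, are those whose Entrez numbers map to Gbp2, Gbp3, Gbp5, Gbp6, Gbp7, Gbp9, Igtp, Irgm1, Irgm2 and Iigp1, of 24454 genes listed. Total RNA was sequenced in 8 libraries: 3 of cells with a hairpin against murine ERK5 (shERK5, hairpin 1 of the titles), 2 of cells with a hairpin against murine MEK5 (shMEK5, hairpin 2 of the titles) and 3 of cells with a non-targeting hairpin (shCTRL). Cells of every group, controls included, had been infected with lentivirus and selected with puromycin. Each target was hit by 1 hairpin only, so an effect of the hairpin's sequence and an effect of losing its target cannot be told apart. The series title places the kinase pair in the epithelial-mesenchymal transition and metastasis of breast cancer.

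GBPs and IRGs are GTP-hydrolysing proteins of cell-autonomous immunity. They assemble on the vacuoles of intracellular bacteria and parasites and help to break them open. Their genes are nearly silent in most resting cells and are switched on by interferon-gamma and, for many of them, by type I interferons, through transcription factors of the STAT and IRF families. In mouse IRGs, the effector proteins that coat vacuoles are held in check by a regulatory subgroup, to which Irgm1, Irgm2 and Igtp belong.

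The 10 genes were at their highest level in shMEK5 cells. Summed over the 4 IRGs, the level was 19.9 ± 1.54 CPM in shERK5, 43.9 ± 0.233 CPM in shMEK5 and 10.3 ± 0.638 CPM in shCTRL (SD, n = 3, 2 and 3 libraries). CPM, the deposited unit, is the read count of a gene scaled to the same total of gene-assigned reads in every library. Summed over the 6 GBPs, it was 5.61 ± 0.614 CPM in shERK5, 29.3 ± 3.54 CPM in shMEK5 and 3.31 ± 0.486 CPM in shCTRL. In neither family did the summed level of any group overlap that of another. In such bulk RNA, more cells that express a gene and more RNA per cell cannot be told apart.

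The hairpins lowered their own targets. Mapk7, which encodes ERK5, averaged 6.53 ± 0.173 CPM in shERK5, 19.5 ± 1.19 CPM in shMEK5 and 26.8 ± 1.61 CPM in shCTRL. Map2k5, which encodes MEK5, averaged 36.7 ± 0.475, 14.2 ± 0.216 and 36.3 ± 0.997 CPM in the same order of groups. Mapk7 was thus also lower in every shMEK5 library than in any shCTRL library. The libraries held between 41397315 and 53714288 reads assigned to genes, so a gene with 0 reads could still have up to 0.0559 to 0.0725 CPM, a limit that covers counting error only. The 7 epithelial markers summed to 1641 to 1687 CPM in shERK5, 1277 to 1342 CPM in shMEK5 and 1700 to 1882 CPM in shCTRL, most of it Krt8 and Krt18. Single markers went other ways than this sum: Cldn4 was at 285 to 291 CPM in shERK5, 77.6 to 79.3 CPM in shMEK5 and 65.0 to 73.4 CPM in shCTRL, and Cdh1 was at 103 to 121 CPM in shERK5, 55.4 to 55.9 CPM in shMEK5 and 37.2 to 37.6 CPM in shCTRL, while Epcam and Krt19 were also higher in every shERK5 library than in any shCTRL library. The 11 leukocyte markers summed to 2.9 to 3.82 CPM in shERK5, 2.03 to 2.25 CPM in shMEK5 and 2.96 to 3.25 CPM in shCTRL, nearly all of it Cd68. Adgre1, Cd3e and Ncr1, which define macrophages, T cells and natural killer cells, had 0 reads in all 8 libraries. The 6 fibroblast markers summed to 22.9 to 28.2 CPM in shERK5, 34.4 to 35.9 CPM in shMEK5 and 31.6 to 47.1 CPM in shCTRL, mostly Pdgfra, with Thy1, Dcn and Lum at 0 reads throughout. The 4 endothelial markers summed to 0.733 to 0.782 CPM in shERK5, 0.400 to 0.531 CPM in shMEK5 and 0.234 to 0.569 CPM in shCTRL, with Kdr at 0 reads. The part of these marker differences, in any of the cell types, in the results below was not tested. Nothing in the labels tells whether the replicates of a group were grown apart, and the p-values therefore rest on a spread between libraries that may be technical.

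**Figure D1:**
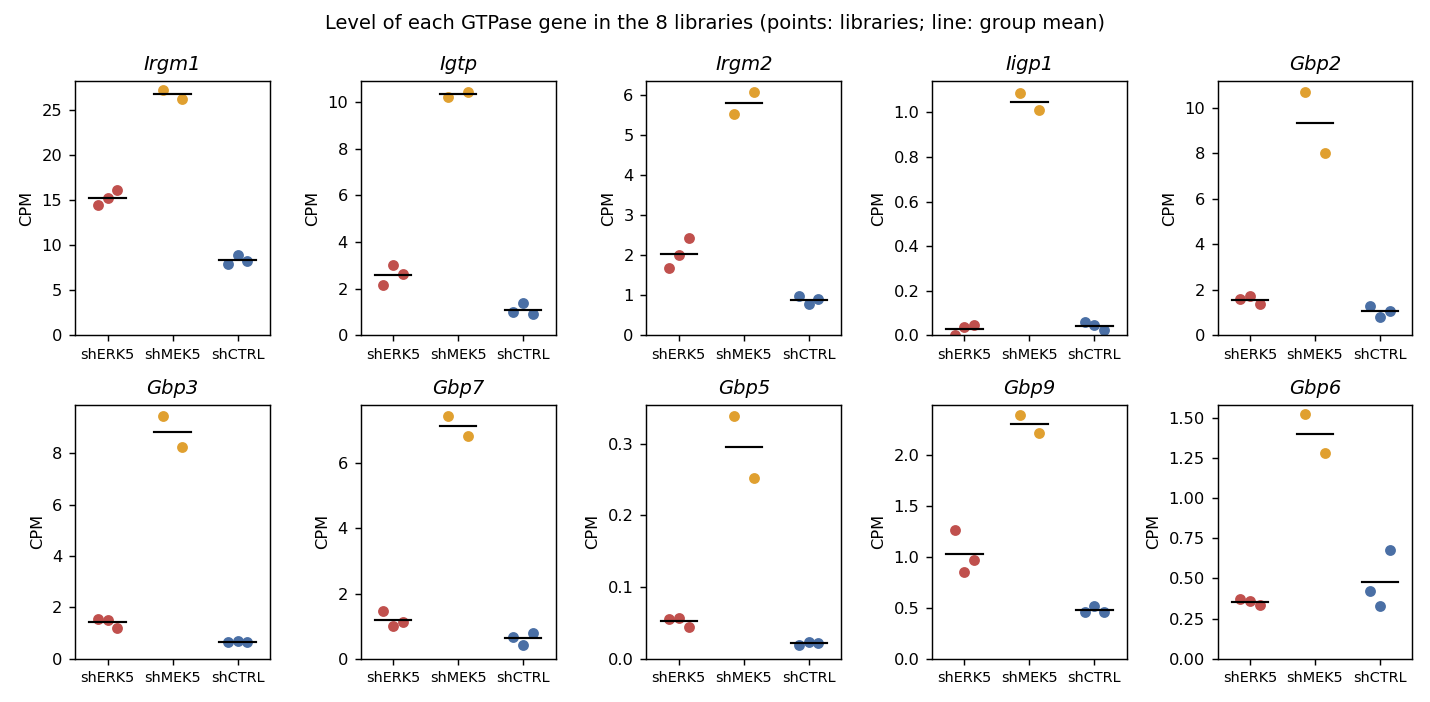
Level of each of the 10 GTPase genes in every library, in CPM, with shERK5, shMEK5 and shCTRL from left to right and a point per library. The shMEK5 libraries lie above all others in every panel, and the shERK5 libraries lie above the shCTRL libraries for 8 of the 10 genes.

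The sequence just before the transcription start is where interferon-activated factors are known to bind. An interferon-stimulated response element (ISRE) is bound by IRF proteins and by complexes of STAT proteins with IRF9. A gamma-activated site (GAS) is bound by paired STAT proteins. The core of the ISRE was searched as GAAA, 2 bases of any kind and GAAA, and the GAS as TTC, 3 bases of any kind and GAA, on both strands and with overlaps allowed, in RefSeq promoters of GRCm38.p6 that run from 250 bases before to 50 bases after each start. RefSeq promoters were matched for 7 of the 10 genes. All 7 of them held an ISRE core, a motif present in 3.44% of 32851 promoter windows, or in 3.99% of 27025 genes. A GAS was present in 4 of the 7, those of Gbp5, Gbp7, Igtp and Irgm2, and in 8.30% of windows, or 9.55% of genes. A match of letters is a description and not evidence of a bound site. Below are 6 promoters from 150 bases to 1 base before the start, 5′ to 3′ on the strand of the gene, for the genes whose levels are the best measured. Capitals mark ISRE cores and GAS, and an ISRE core on the other strand reads TTTC, 2 bases and TTTC.
Irgm1: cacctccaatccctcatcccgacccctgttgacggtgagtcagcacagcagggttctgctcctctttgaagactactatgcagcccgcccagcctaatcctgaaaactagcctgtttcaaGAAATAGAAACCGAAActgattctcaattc
Igtp: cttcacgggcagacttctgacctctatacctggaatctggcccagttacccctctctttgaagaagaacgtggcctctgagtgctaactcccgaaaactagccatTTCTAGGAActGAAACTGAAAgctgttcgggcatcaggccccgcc
Irgm2: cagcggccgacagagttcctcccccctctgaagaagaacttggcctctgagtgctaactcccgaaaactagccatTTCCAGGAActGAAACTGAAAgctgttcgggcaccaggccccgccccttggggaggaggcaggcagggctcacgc
Gbp2: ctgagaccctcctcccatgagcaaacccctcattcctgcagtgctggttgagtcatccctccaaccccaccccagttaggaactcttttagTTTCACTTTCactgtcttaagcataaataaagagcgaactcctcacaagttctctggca
Gbp3: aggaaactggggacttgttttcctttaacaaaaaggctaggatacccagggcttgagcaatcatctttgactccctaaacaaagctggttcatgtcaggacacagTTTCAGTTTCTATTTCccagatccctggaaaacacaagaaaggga
Gbp7: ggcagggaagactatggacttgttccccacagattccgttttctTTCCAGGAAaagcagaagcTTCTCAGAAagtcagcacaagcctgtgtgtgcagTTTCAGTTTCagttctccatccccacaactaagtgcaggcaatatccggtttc

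These stretches lie at chr11:48871421-48871570 on the minus strand for Irgm1, and on the plus strand at chr11:58199406-58199555 for Igtp, chr11:58214827-58214976 for Irgm2, chr3:142620513-142620662 for Gbp2, chr3:142559894-142560043 for Gbp3 and chr3:142530186-142530335 for Gbp7. In each of the 6 the ISRE core lies within 64 bases of the start. Irgm1 and Gbp3 each carry a pair of overlapping cores, at 30 to 15 bases before the start in Irgm1 and at 45 to 30 bases before it in Gbp3. In Igtp and Irgm2 the GAS stands directly before the ISRE core, with a gap of 2 bases in both. Shifted by 30 bases, the promoters of these neighbouring genes are identical at 184 of 270 aligned bases, or 68.1%, and the longest identical run, of 61 bases, lies from 11 bases before to 50 bases after the start of Igtp. Gbp7 has its pair of GAS farther from the start, at 106 to 98 and 87 to 79 bases before it. Gbp5 differs in layout, with its ISRE core at 165 to 156 bases before the start and a GAS on either side of it. A second annotated start of Gbp3 has neither motif in its window. The genome sequence is that of a C57BL/6J mouse, and the sequence in 4T1 cells was not analysed here.

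**Figure D2:**
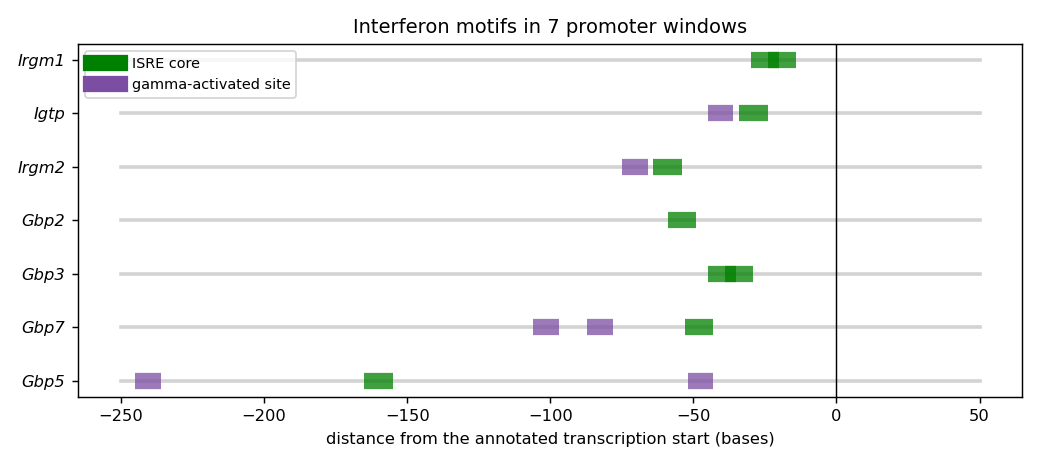
Position of ISRE cores (green) and gamma-activated sites (purple) in the promoters of 7 GTPase genes, as the distance in bases from the annotated transcription start (0); grey lines span the stretch searched. The ISRE core lies within 64 bases of the start in 6 genes and farther away in Gbp5.

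Among the IRGs, Irgm1, a regulatory IRG needed for resistance to mycobacteria in mice and a guardian of mitochondria and autophagy, had the highest CPM in every library. The gene lies at chr11:48865245-48871420 on the minus strand. Its level was 14.4, 15.2 and 16.2 CPM in the shERK5 libraries, 27.3 and 26.3 CPM in the shMEK5 libraries and 7.88, 8.87 and 8.19 CPM in the shCTRL libraries. The groups did not overlap, and shERK5 lay between shMEK5 and shCTRL. The ratio of mean CPM was 1.84 for shERK5 over shCTRL, 3.22 for shMEK5 over shCTRL and 0.571 for shERK5 over shMEK5. On a log2(CPM + 1) scale, where changes of low genes come out too small, Irgm1 rose by 0.81 (SE 0.07) in shERK5 against shCTRL (limma, Benjamini-Hochberg adjusted p = 4.77e-06). It rose by 1.58 (SE 0.08) in shMEK5 against shCTRL (limma, adjusted p = 3.63e-07), and its difference of shERK5 minus shMEK5 was -0.77 (SE 0.08; limma, adjusted p = 3.63e-05).

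Igtp, also called Irgm3, is a regulatory IRG found on the endoplasmic reticulum and lipid droplets. It lies at chr11:58199556-58207592. The level was 2.14, 3.01 and 2.63 CPM in shERK5, 10.2 and 10.4 CPM in shMEK5 and 0.999, 1.38 and 0.898 CPM in shCTRL, with no overlap between any groups. Igtp rose by 0.78 (SE 0.11) on the log2(CPM + 1) scale in shERK5 against shCTRL (limma, adjusted p = 0.000171) and by 2.44 (SE 0.13) in shMEK5 against shCTRL (limma, adjusted p = 4.40e-07). Its mean in shERK5 was 0.251 times that in shMEK5 (limma, adjusted p = 6.13e-06).

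Irgm2, a regulatory IRG of the Golgi that restrains the response of mouse macrophages to bacterial lipopolysaccharide in the cytosol, is the neighbour of Igtp at chr11:58214977-58222783. Its level was 1.68, 1.99 and 2.43 CPM in shERK5, 5.53 and 6.08 CPM in shMEK5 and 0.980, 0.772 and 0.898 CPM in shCTRL. Again the groups kept apart, with shMEK5 highest and shCTRL lowest. Irgm2 rose by 0.68 (SE 0.10) in shERK5 against shCTRL (limma, adjusted p = 0.000232) and by 1.85 (SE 0.12) in shMEK5 against shCTRL (limma, adjusted p = 1.62e-06), as log2 differences, and its shERK5 minus shMEK5 difference was -1.17 (SE 0.12; limma, adjusted p = 3.27e-05). Igtp and Irgm2 share sequence: 11.8% of the 50-base words of Igtp also occur in Irgm2, and 6.79% of those of Irgm2 occur in Igtp. No source used here states how reads from such stretches were counted.

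Iigp1, also called Irga6, is the effector IRG that coats the vacuole of Toxoplasma gondii in mouse cells. Its gene lies on chromosome 18. It had 0, 2 and 2 reads in the shERK5 libraries, 45 and 48 reads in the shMEK5 libraries and 3, 2 and 1 reads in the shCTRL libraries. In shMEK5 this came to 1.09 and 1.01 CPM, and no library of the other groups exceeded 0.0576 CPM. The pooled reads gave a level 24.5 times as high in shMEK5 as in shCTRL (95% exact interval 10.8 to 68.4, counting error only), and Iigp1 rose by 0.97 (SE 0.09) on the log2(CPM + 1) scale (limma, adjusted p = 1.93e-05). In shERK5 against shCTRL the log2 difference was -0.02 (SE 0.08; limma, adjusted p = 0.844), and the pooled ratio of 0.619 had an interval of 0.128 to 2.61. The difference of shERK5 minus shMEK5 was -1.0 (SE 0.09; limma, adjusted p = 2.30e-05). Iigp1 passed the filter on low values, at least 1 CPM in at least 2 libraries, through the shMEK5 libraries alone. A high level in shMEK5 was thus a condition of testing it, and the p-values of its comparisons with shMEK5 give no separate support.

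Irgm1 made up a smaller share of the summed CPM of these genes in shMEK5 than in shERK5 or shCTRL. These are shares of reads, with no correction for gene length. It gave 58.9%, 59.1% and 61.4% of the summed CPM of the 10 genes in the shERK5 libraries, 35.9% and 37.2% in the shMEK5 libraries and 58.7%, 64.1% and 59.8% in the shCTRL libraries. The shERK5 and shCTRL libraries overlapped in this share, and the shMEK5 libraries lay below both.

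Of the GBPs on chromosome 3, Gbp2 is recruited to vacuoles of Toxoplasma and of bacteria in mouse cells. It lies at chr3:142620663-142638008. Its level was 1.58, 1.73 and 1.37 CPM in shERK5, 10.7 and 7.99 CPM in shMEK5 and 1.27, 0.795 and 1.07 CPM in shCTRL. The shMEK5 libraries lay far above the rest, while the lowest shERK5 library was only slightly above the highest shCTRL library. Gbp2 rose by 2.33 (SE 0.14) on the log2(CPM + 1) scale in shMEK5 against shCTRL (limma, adjusted p = 1.02e-06), a ratio of mean CPM of 8.93. In shERK5 against shCTRL the log2 difference was 0.33 (SE 0.12; limma, adjusted p = 0.0355). This difference no longer passed the test when shERK5 replicate 1 (0.32, adjusted p = 0.0626), shERK5 replicate 2 (0.28, adjusted p = 0.101), shCTRL replicate 2 (0.24, adjusted p = 0.134) or shCTRL replicate 3 (0.34, adjusted p = 0.0683) was left out, nor with no filter on low values (adjusted p = 0.0653). Over all alternatives its adjusted p ranged from 0.0199 to 0.134. The difference of shERK5 minus shMEK5 was -2.0 (SE 0.14; limma, adjusted p = 2.98e-06).

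Gbp3 lies in the same cluster at chr3:142560016-142573213. Its level was 1.55, 1.5 and 1.22 CPM in shERK5, 9.45 and 8.23 CPM in shMEK5 and 0.653, 0.678 and 0.657 CPM in shCTRL. The shERK5 libraries were all above the shCTRL libraries, with a ratio of means of 2.14 and a log2 difference of 0.54 (SE 0.09; limma, adjusted p = 0.000403). Between the knockdowns the mean in shERK5 was 0.161 times that in shMEK5 (limma, adjusted p = 4.17e-07).

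Gbp7, which in mice supports the assembly of the phagocyte oxidase on bacterial vacuoles, lies at chr3:142530336-142550151. Its level was 1.45, 1.01 and 1.13 CPM in shERK5, 7.44 and 6.84 CPM in shMEK5 and 0.673, 0.421 and 0.788 CPM in shCTRL, again without overlap. The log2 difference was 0.43 (SE 0.11; limma, adjusted p = 0.00582) in shERK5 against shCTRL and 2.33 (SE 0.12; limma, adjusted p = 5.33e-07) in shMEK5 against shCTRL. The mean in shMEK5 was 11.4 times that in shCTRL. Of the 50-base words of Gbp7, 12.7% occur elsewhere among annotated transcripts, most of them in Gm43802.

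Gbp5, which promotes inflammasome activation in mouse macrophages, was close to the detection limit. It had 3, 3 and 2 reads in shERK5, 14 and 12 reads in shMEK5 and 1, 1 and 1 reads in shCTRL, and did not reach the 1 CPM in 2 libraries required for the test. The pooled reads gave a level 13.7 times as high in shMEK5 as in shCTRL (95% exact interval 4.2 to 70.7) and 0.181 times as high in shERK5 as in shMEK5 (0.0707 to 0.411). For shERK5 over shCTRL the ratio was 2.47, with an interval of 0.594 to 14.5. In edgeR's quasi-likelihood test on all 17283 genes with a read, an alternative added after the data were seen, Gbp5 rose in shMEK5 against shCTRL (adjusted p = 0.000496), as did 16.9% of those genes. The same test gave an adjusted p of 0.323 for shERK5 against shCTRL, where 21.7% of the genes rose, and of 0.00385 for shERK5 against shMEK5, where Gbp5 was lower, as were 13.3% of the genes.

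Gbp6 and Gbp9 belong to the second GBP cluster of the mouse, on chromosome 5, and their proteins also gather on Toxoplasma vacuoles. Gbp9, at chr5:105076464-105110357, had 1.27, 0.845 and 0.967 CPM in shERK5, 2.39 and 2.21 CPM in shMEK5 and 0.461, 0.515 and 0.460 CPM in shCTRL. The 3 groups were apart in the same order as for Irgm1. Gbp9 rose by 0.45 (SE 0.10) in shERK5 against shCTRL (limma, adjusted p = 0.00201) and by 1.16 (SE 0.11) in shMEK5 against shCTRL (limma, adjusted p = 1.61e-05), as log2 differences. The difference of shERK5 minus shMEK5 was -0.71 (SE 0.11; limma, adjusted p = 0.000500).

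Gbp6, at chr5:105270702-105295871, did not pass the test between shERK5 and shCTRL. Its level was 0.372, 0.357 and 0.337 CPM in shERK5, 1.52 and 1.28 CPM in shMEK5 and 0.423, 0.328 and 0.679 CPM in shCTRL. The shERK5 and shCTRL libraries overlapped, with a log2 difference of -0.12 (SE 0.10; limma, adjusted p = 0.347), and the shMEK5 libraries were above both, with 0.71 (SE 0.12; limma, adjusted p = 0.00064) against shCTRL. Its values are uncertain, because 70.7% of its 50-base words occur in another annotated gene, and 65.0% of all its words occur in Gm43302. Gbp6 also passed the filter on low values through the shMEK5 libraries alone, so the p-value of its rise in shMEK5 gives no separate support.

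**Figure D3:**
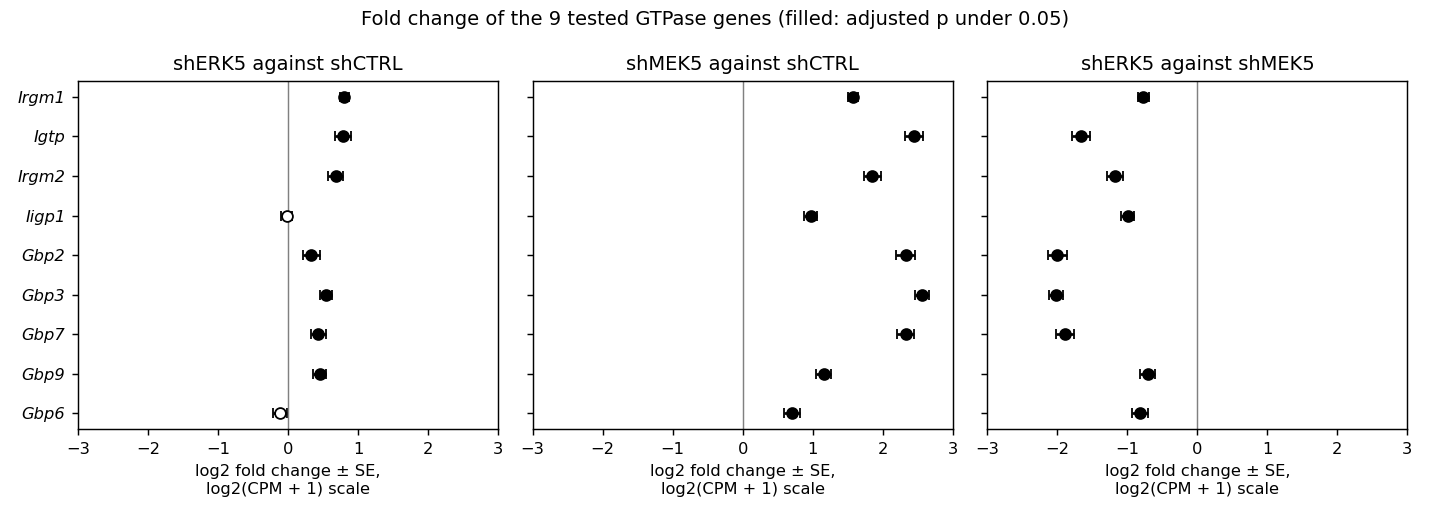
Log2 fold change ± SE of the tested GTPase genes on the log2(CPM + 1) scale in the 3 comparisons. The shMEK5 against shCTRL values run from 0.71 to 2.56, those of shERK5 against shCTRL from -0.12 to 0.81, and those of shERK5 against shMEK5 from -2.02 to -0.71.

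Across the genes, 9 of 10 passed the filter on low values. Gbp6 and Iigp1 passed it through the shMEK5 libraries alone, so they had to be high there, and both leave the test when either shMEK5 library is left out. In shERK5 against shCTRL, 7 of 9 tested genes rose and 0 fell, where 32.0% of all 11623 tested genes rose and 31.3% fell. In shMEK5 against shCTRL, 9 of 9 rose, where 23.1% of all tested genes rose and 25.6% fell. In shERK5 against shMEK5, 9 of 9 were lower, where 17.4% of all tested genes were lower and 22.0% higher. The median log2 difference of the 9 was 0.45, 1.85 and -1.17 in these 3 comparisons, in the order given, where that of all tested genes was 0.0023, -0.019 and 0.017. Without Gbp6 and Iigp1, whose high shMEK5 level the filter fixed, 7 of 7 rose in shERK5 and 7 of 7 in shMEK5, each against shCTRL, and 7 of 7 were lower in shERK5 than in shMEK5, with medians of 0.54, 2.33 and -1.67. Of those 7, Gbp9 also needed a shMEK5 library to pass, since 1 shERK5 library reached 1 CPM. The first 2 comparisons share the shCTRL libraries and are not independent of each other. The members were also chosen with earlier results of these data known, so the counts set beside the shares of all genes are a description and no test. The shERK5 libraries lay wholly above the shCTRL libraries for 8 of the 10 genes, Gbp6 and Iigp1 being the exceptions, where 34.8% of tested genes did so and 33.1% lay wholly below. The shMEK5 libraries lay wholly above the shCTRL libraries for all 10, where 32.2% of tested genes did so and 36.5% lay wholly below. The shERK5 libraries lay wholly below the shMEK5 libraries for all 10, where 26.9% of tested genes did so and 34.1% lay wholly above. These counts out of 10 include Gbp5, which had few reads and did not pass the filter, while the shares cover only genes that passed it.

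The size of the change differed among the genes within a comparison. In shMEK5 over shCTRL the ratio of mean CPM was smallest for Gbp6 (2.95) and Irgm1 (3.22), and was 9.47 for Igtp and 13.3 for Gbp3; that of Iigp1, given above from pooled reads, rests on few shCTRL reads. In shERK5 over shCTRL the ratios above 1 of tested genes ran from 1.49 for Gbp2 to 2.37 for Igtp. Those of Gbp6 (0.75) and of Iigp1 (0.65, from few reads) were below 1. No test of a difference between genes was made.

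Levels per kilobase of exon, with all annotated exons of a gene merged into 1 length, give an order of the genes. The gene models of the read counter are not stated, and the transcripts present may be shorter than this length. Stretches shared with other genes, described above for Gbp6, Gbp7, Igtp and Irgm2, may also alter the counts. How far the order depends on these points was not tested. In shERK5 the order was Irgm1 (2.63 CPM per kb), Igtp (1.28), Gbp2 (0.620), Irgm2 (0.551), Gbp3 (0.435), Gbp7 (0.213), Gbp9 (0.198), Gbp6 (0.0597), Gbp5 (0.00789) and Iigp1 (0.00473). Of these neighbours, Gbp2 and Irgm2, Irgm2 and Gbp3, Gbp7 and Gbp9, and Gbp5 and Iigp1 overlapped over the 3 libraries. In shMEK5 Igtp came first (5.11 CPM per kb), before Irgm1 (4.60), Gbp2 (3.71), Gbp3 (2.71), Irgm2 (1.57), Gbp7 (1.27), Gbp9 (0.445), Gbp6 (0.236), Iigp1 (0.180) and Gbp5 (0.0445), and no neighbours overlapped over the 2 libraries. In shCTRL the order was that of shERK5 but for the last 2 places, from Irgm1 (1.43 CPM per kb), Igtp (0.540) and Gbp2 (0.416) down to Iigp1 (0.00723) and Gbp5 (0.00324). In shCTRL Igtp and Gbp2, Gbp7 and Gbp9, and Gbp9 and Gbp6 overlapped.

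**Figure D4:**
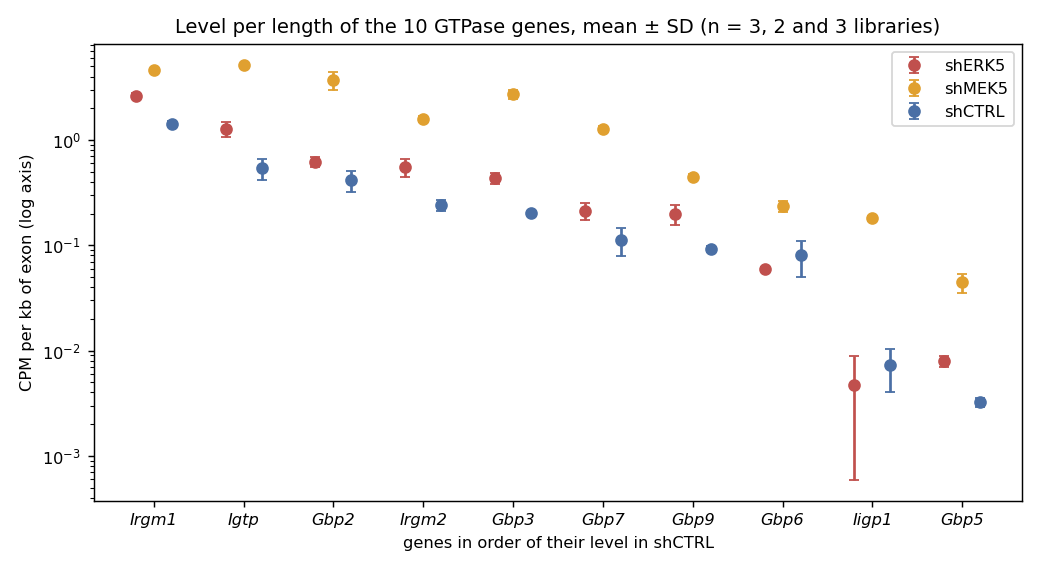
Level per kilobase of exon of the 10 genes (CPM per kb, log axis), as mean ± SD of 3 shERK5, 2 shMEK5 and 3 shCTRL libraries. Irgm1 is highest in shERK5 and shCTRL and Igtp in shMEK5, and Iigp1 and Gbp5 are lowest in each group. Length is that of all annotated exons of a gene merged, and the order depends on it.

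The 9 tested genes varied together over the 8 libraries, with Pearson's r between pairs of 0.693 to 0.992 and a median of 0.955. The libraries share their groups, so these values describe the group differences above. Among 10058 other genes with a mean of at least 5 CPM, those most like the mean of the 9 were Jag1 (r = 0.997), Ifit1 (0.996), Dcbld2 (0.994), Proser2 (0.993), Irf9 (0.993) and Arhgap29 (0.992), and the median r was -0.0606. Jag1, a ligand of Notch receptors, averaged 40.2 ± 0.775 CPM in shERK5, 102 ± 2.63 CPM in shMEK5 and 31.5 ± 1.52 CPM in shCTRL. Ifit1, an interferon-induced protein that binds foreign RNA, averaged 5.75 ± 0.144 CPM in shERK5, 24.2 ± 0.0582 CPM in shMEK5 and 4.25 ± 0.111 CPM in shCTRL. These genes were ranked over the same libraries and the likeness carries no test.

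Of 20 further GBP and IRG genes listed, 17 were matched, 3 of them with no read in any library, and 2 passed the filter. Gbp2b, formerly named Gbp1, averaged 2.25 ± 0.127 CPM in shERK5, 8.95 ± 1.14 CPM in shMEK5 and 1.21 ± 0.201 CPM in shCTRL. It rose by 0.56 (SE 0.10) on the log2(CPM + 1) scale in shERK5 against shCTRL (limma, adjusted p = 0.000609) and by 2.17 (SE 0.11) in shMEK5 against shCTRL (limma, adjusted p = 3.87e-07). Irgq, an IRG relative with a role in autophagy, averaged 31.8 ± 0.571 CPM in shERK5, 30.7 ± 3.58 CPM in shMEK5 and 28.8 ± 1.52 CPM in shCTRL and passed no test. Among other interferon-induced large GTPases, Mx2, of the dynamin-like kind, averaged 1.83 ± 0.225 CPM in shERK5, 9.28 ± 0.0632 CPM in shMEK5 and 1.99 ± 0.0634 CPM in shCTRL. Mx2 rose by 1.78 (SE 0.09) in shMEK5 against shCTRL (limma, adjusted p = 4.40e-07). Mx1, its paralogue, had 18 reads in all in shERK5, 128 in shMEK5 and 5 in shCTRL. The pooled ratio of Mx1 was 40.4 for shMEK5 over shCTRL (95% exact interval 16.9 to 127). It passed the filter through shMEK5 alone, so without either shMEK5 library 1 of the 2 large GTPases remained in the test.

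The interferon ligands that start the pathway were mostly undetected. Of 21 ligand genes, 17 had no read in any library, and Ifng, which encodes interferon-gamma, was among them. Ifnb1, which encodes interferon-beta, had 0.0186, 0.0188 and 0.0225 CPM in shERK5, 1.88 and 3.18 CPM in shMEK5 and 0.0384, 0.0234 and 0 CPM in shCTRL. The reads numbered 3 over shERK5, 229 over shMEK5 and 3 over shCTRL, so the shMEK5 libraries alone stood above the detection limit. Ifnb1 rose by 1.77 (SE 0.14) on the log2(CPM + 1) scale in shMEK5 against shCTRL (limma, adjusted p = 5.83e-06), and the pooled ratio was 121 (95% exact interval 40.7 to 589). It passed the filter through shMEK5 alone, and without either shMEK5 library it left the test and the count of ligands called was 0.

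Of 9 interferon receptor and Janus kinase genes tested, 1 rose and 5 fell in shERK5 against shCTRL, and 2 rose and 2 fell in shMEK5 against shCTRL. Over all tested genes 32.0% rose and 31.3% fell in shERK5, and 23.1% rose and 25.6% fell in shMEK5, shares that the shMEK5 counts of this list lie near and that also stand behind the list counts below. The median log2 difference was -0.25 in shERK5 and 0.0086 in shMEK5. Where a pair of adjusted p-values is given from here on, the first is for shERK5 and the second for shMEK5, each against shCTRL. Ifnlr1, a receptor chain for interferon-lambda, averaged 5.84 ± 0.267 CPM in shERK5 and 2.81 ± 0.262 CPM in shCTRL, and rose by 0.85 (SE 0.08; limma, adjusted p = 1.14e-05). Jak1 fell by 0.27 (SE 0.04) on the log2 scale in shERK5 against shCTRL (limma, adjusted p = 0.000223). Jak2 fell by 0.54 (SE 0.10) in shERK5 (limma, adjusted p = 0.0012) and by 0.75 (SE 0.11) in shMEK5 (limma, adjusted p = 0.000533), both against shCTRL. Tyk2, the kinase of the type I interferon receptor, averaged 30.6 ± 0.790 CPM in shERK5, 32.4 ± 0.953 CPM in shMEK5 and 44.8 ± 4.03 CPM in shCTRL, and was lower in both knockdowns (limma, adjusted p = 6.70e-05 and 0.00073). The count that rose was 2 in shERK5 without shERK5 replicate 1, and 1 in shMEK5 without shERK5 replicate 3, shMEK5 replicate 2, shCTRL replicate 2 or shCTRL replicate 3.

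Of 13 STAT and IRF transcription factors and feedback brakes, 9 rose and 0 fell in shERK5 against shCTRL, with a median log2 difference of 0.35, and 8 rose and 2 fell in shMEK5 against shCTRL, with a median of 1.05. Over all tested genes 32.0% rose and 31.3% fell in shERK5, and 23.1% rose and 25.6% fell in shMEK5. Without shMEK5 replicate 1 the number of these 13 that fell in shMEK5 was 1. Irf7, which amplifies type I interferon, averaged 4.10 ± 0.0926 CPM in shERK5, 12.5 ± 0.128 CPM in shMEK5 and 2.05 ± 0.246 CPM in shCTRL. Its log2 difference was 0.74 (SE 0.08) in shERK5 and 2.15 (SE 0.09) in shMEK5 (limma, adjusted p = 2.40e-05 and 1.33e-07). Irf9, the DNA-binding partner of STAT proteins, rose by 0.35 (SE 0.06) in shERK5 and by 1.43 (SE 0.07) in shMEK5 (limma, adjusted p = 0.000833 and 3.77e-07). Usp18, which blocks the type I interferon receptor, averaged 3.55 ± 0.215 CPM in shERK5, 16.5 ± 0.827 CPM in shMEK5 and 0.782 ± 0.237 CPM in shCTRL.

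**Figure D5:**
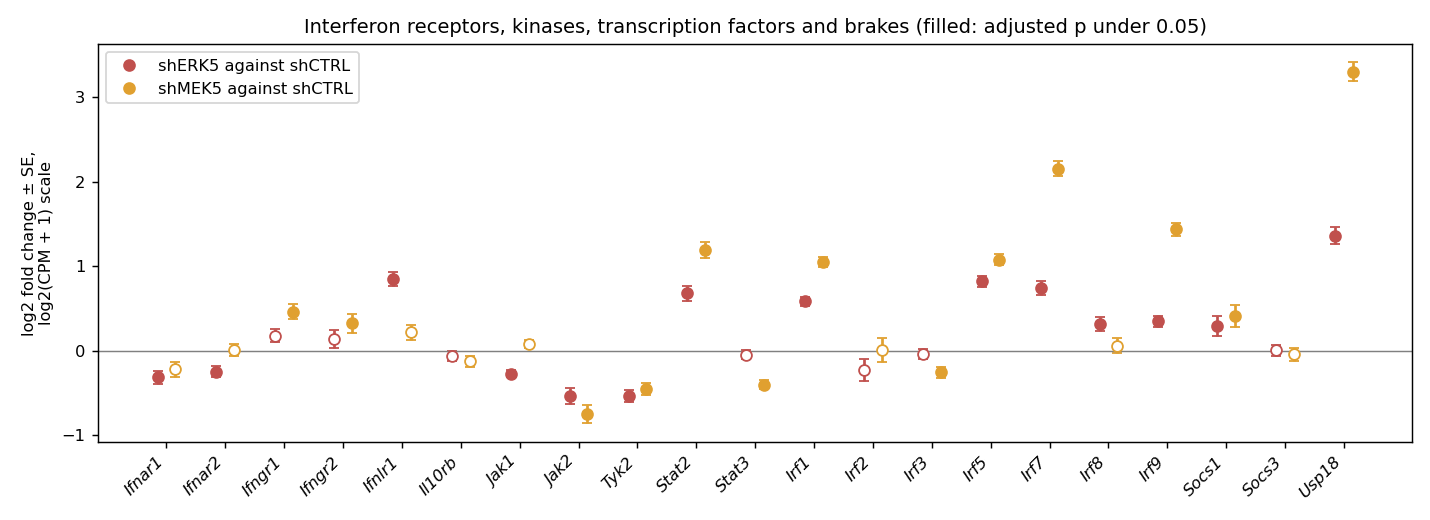
Log2 fold change ± SE on the log2(CPM + 1) scale for 9 interferon receptor and kinase genes and 12 of the 13 transcription factor and brake genes, shERK5 against shCTRL in red and shMEK5 against shCTRL in orange, filled where the adjusted p is under 0.05. Most transcription factors lie above 0 in both, with shMEK5 higher for Irf7, Irf9 and Usp18, while Jak2 and Tyk2 lie below 0 in both.

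Genes whose products act with the GTPases were also measured. The ATG8 conjugation system, a part of the autophagy machinery that directs GBPs and IRGs to the right membranes, had 5 genes that rose and 2 that fell of 11 tested in shERK5 against shCTRL, and 1 that rose and 4 that fell in shMEK5 against shCTRL, with median log2 differences of 0.054 and -0.047. The shares over all tested genes were 32.0% higher and 31.3% lower in shERK5 and 23.1% higher and 25.6% lower in shMEK5. Atg5, part of the complex that attaches ATG8 proteins to lipid, averaged 85.5 ± 3.68 CPM in shERK5 and 64.4 ± 0.442 CPM in shCTRL, and rose by 0.40 (SE 0.05; limma, adjusted p = 3.58e-05). In shMEK5 against shCTRL, Atg12 fell by 0.29 (SE 0.05; limma, adjusted p = 0.000642), Atg16l1 fell by 0.42 (SE 0.06; limma, adjusted p = 0.00041) and Gabarap fell by 0.41 (SE 0.05; limma, adjusted p = 8.05e-05). The shERK5 count that rose was 3 without shERK5 replicate 2 or shERK5 replicate 3, and the count that fell was 1 without shERK5 replicate 1, shCTRL replicate 1 or shCTRL replicate 2. The shMEK5 count that rose was 0 without shMEK5 replicate 2.

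Gbp2 and Gbp5 are anchored in membranes by a prenyl lipid. Of 6 enzymes that attach or process it, 4 rose and 0 fell in shERK5 against shCTRL and 2 rose and 0 fell in shMEK5 against shCTRL, with median log2 differences of 0.20 and 0.054, where 32.0% and 23.1% of all tested genes rose. The shERK5 count was 3 whichever library was left out, because Zmpste24, a protease of the pathway, then no longer passed: its log2 difference of 0.11 (SE 0.04; limma, adjusted p = 0.041) had an adjusted p of up to 0.130 over the alternatives. Icmt, which methylates the prenylated end, averaged 134 ± 7.13 CPM in shERK5, 124 ± 4.43 CPM in shMEK5 and 101 ± 0.432 CPM in shCTRL, and rose by 0.41 (SE 0.05) in shERK5 and by 0.30 (SE 0.06) in shMEK5 (limma, adjusted p = 5.21e-05 and 0.00126). Rce1, the protease that trims that end, rose by 0.29 (SE 0.05) and 0.28 (SE 0.06) in the same comparisons (limma, adjusted p = 0.000854 and 0.00318). Fnta, a subunit shared by 2 of the transferases, rose by 0.34 (SE 0.05) in shERK5 (limma, adjusted p = 0.000125). Without shERK5 replicate 1, 1 of the 6 fell in shMEK5.

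GBPs feed into inflammasomes and pyroptosis, a lytic form of cell death, and some genes of this arm fell in both knockdowns. Of 12 such genes 5 passed the filter. In shERK5 against shCTRL 0 rose and 4 fell, and in shMEK5 against shCTRL 0 rose and 3 fell. The median log2 differences were -0.92 and -0.87. Of all tested genes 31.3% fell in shERK5 and 25.6% in shMEK5. Gsdme was among those that fell in shERK5, by 0.43 (SE 0.15; limma, adjusted p = 0.0324). Its adjusted p was up to 0.0979 over the alternatives. Leaving out 1 library at a time gave 3 to 4 genes that fell in shERK5. Gsdmd, the pore-forming protein of pyroptosis, had 3.04, 3.33 and 3.31 CPM in shERK5, 3.99 and 3.85 CPM in shMEK5 and 11.4, 10.5 and 11.1 CPM in shCTRL. Both knockdowns lay far below shCTRL, with log2 differences of -1.51 (SE 0.07) in shERK5 and -1.29 (SE 0.08) in shMEK5 (limma, adjusted p = 1.74e-07 and 1.62e-06). Casp1, the inflammasome protease, averaged 1.01 ± 0.193 CPM in shERK5, 0.735 ± 0.0877 CPM in shMEK5 and 3.27 ± 0.271 CPM in shCTRL (limma, adjusted p = 6.42e-06 and 8.87e-06). Casp4, the mouse sensor of cytosolic lipopolysaccharide also called caspase-11, averaged 1.13 ± 0.251 CPM in shERK5, 1.2 ± 0.0258 CPM in shMEK5 and 3.02 ± 0.247 CPM in shCTRL (limma, adjusted p = 2.62e-05 and 0.000154). Pycard, the adaptor of most inflammasomes, had no read in any library.

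Of 8 ubiquitin and adaptor genes tested, whose proteins gather at GTPase-coated vacuoles, 2 rose and 3 fell in shERK5 against shCTRL, and 3 rose and 3 fell in shMEK5 against shCTRL, with median log2 differences of -0.082 and -0.13. The shERK5 counts lie near the shares over all tested genes, 32.0% higher and 31.3% lower, and the shares in shMEK5 were 23.1% higher and 25.6% lower. Isg15, an interferon-induced ubiquitin-like protein, averaged 2.07 ± 0.517 CPM in shERK5, 6.88 ± 1.49 CPM in shMEK5 and 0.952 ± 0.350 CPM in shCTRL (limma, adjusted p = 0.00744 and 3.54e-05). Trim21, an antibody receptor and ubiquitin ligase, averaged 14.5 ± 2.01 CPM in shMEK5 and 6.92 ± 0.555 CPM in shCTRL and rose by 0.96 (SE 0.10; limma, adjusted p = 4.41e-05). Sqstm1, the autophagy adaptor p62, averaged 1782 ± 25.9 CPM in shERK5, 1440.0 ± 37.8 CPM in shMEK5 and 2164 ± 51.3 CPM in shCTRL, and was lower in both (limma, adjusted p = 0.000128 and 3.88e-06). Optn, another autophagy adaptor, fell by 0.43 (SE 0.07) in shMEK5 against shCTRL (limma, adjusted p = 0.000861). The shERK5 count that rose was 1 without shERK5 replicate 2, shERK5 replicate 3, shCTRL replicate 1 or shCTRL replicate 3.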

How the data were processed

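Per the labels' protocols, total RNA depleted of ribosomal RNA was made into stranded libraries. The submitters' processing notes name STAR and mm10 (the UCSC name of GRCm38); the read counter, its gene models and whether it used strand are not stated in the sources used here. The authors deposited CPM for 24454 genes by Entrez number. Symbols came from RefSeq for 24374 of them. All deposited values above 0 (100%) were whole reads within 0.01 read, so reads could be recovered; on them edgeR 4.0.16 called 3718 genes higher and 3632 lower in shERK5 and 2897 higher and 2730 lower in shMEK5, each against shCTRL. Depth was 41397315 to 53714288 reads.

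The test was limma 3.58.1 (R 4.3.3) with trend and robust moderation on log2(CPM + 1), with a mean per group over all 8 libraries and Benjamini-Hochberg adjustment over 11623 genes with at least 1 CPM in at least 2 libraries; 12831 did not qualify. The threshold for a call was an adjusted p under 0.05. The script was tested on simulated data. Chi-square per degree of freedom between replicates was 8.22 to 42.5, above sampling noise in every pair.

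The members and gene lists were chosen with earlier results of these data known. The rule for named genes took the 10 members, further family genes that passed the filter, up to 4 genes with the smallest adjusted p from each other list, and the 6 genes most alike over the libraries; Ifng and Pycard were named after their values were seen. Exon lengths, gene positions and shared 50-base words came from GENCODE M21 on GRCm38, and promoters from RefSeq. Pooled read ratios have exact 95% intervals that cover counting error only. Alternatives were a pseudocount of 0.25, no filter, a filter of 5 CPM, TMM and RLE scaling, edgeR and DESeq2 1.42.0 on recovered reads, a replicate block, the compared groups alone and leaving out each library. Protein sequences were not analysed here. List genes that the text does not name are counted or summed only.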

Additional observations from a re-analysis of the deposited data

How the results depend on the processing

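Every called difference of the 10 genes kept its direction under each alternative that tested it, and among those tested only the Gbp2 call in shERK5 against shCTRL, described above, was lost. With a filter of 5 CPM only 6 of the genes were tested (Gbp6, Gbp9 and Iigp1 left), of which 6 were higher in shERK5 and 6 in shMEK5 against shCTRL and 6 lower in shERK5 against shMEK5. Of all 10288 genes tested with this filter, 3394, 2417 and 1813 were called in these directions, in the same order. All of the 6 but Irgm1 passed this filter through the shMEK5 libraries alone. A high shMEK5 level was thus a condition of testing them, and their calls against shMEK5 or in shMEK5 give no separate support. Leaving out 1 library at a time gave 6 to 7 genes higher in shERK5 against shCTRL, 7 to 9 higher in shMEK5 against shCTRL and 7 to 9 lower in shERK5 against shMEK5; the smaller counts in shMEK5 arose because Gbp6 and Iigp1 left the test. Over all genes, shERK5 against shMEK5 called 1583 to 2712 higher and 1281 to 2178 lower, the lowest without shMEK5 replicate 1. TMM and RLE scaling called 2924 and 2882 genes higher and 2763 and 2783 lower in shMEK5 against shCTRL, where 2684 and 2979 were called with the deposited CPM. Same-numbered libraries did not deviate together in every pair (r from -0.191 to 0.518), so the numbers were not taken to pair them. Between shERK5 and shMEK5 they did, with r of 0.465 for number 1 and 0.518 for number 2. The crossed pairs mirror these values, because 2 libraries lie equally far on either side of their mean. With a replicate block 7, 9 and 9 of the genes were called as before, with 3759 genes higher and 3703 lower in shERK5 against shCTRL. With that block, 2 receptor genes rose in shERK5, 1 in shMEK5 and 1 ubiquitin gene in shERK5. With no filter, 2 other family genes rose in shERK5 and 8 in shMEK5, of 17 matched, 3 of which had no read. The family genes that this setting added lay below 1 CPM in every library. Of 17283 genes tested with no filter, 3948 rose and 3720 fell in shERK5, and 2821 rose and 2890 fell in shMEK5, each against shCTRL. In the same setting 1 receptor gene rose in shMEK5, 1 ATG8 gene fell and 1 ubiquitin gene rose in shERK5, and 5 inflammasome genes fell in shMEK5. With a filter of 5 CPM, 2 and 1 inflammasome genes fell in shERK5 and shMEK5, 0 ligands and 1 large GTPase rose in shMEK5 and 1 ubiquitin gene rose in shERK5. On recovered reads, edgeR called 2 ATG8 genes higher in shMEK5 and DESeq2 1 ubiquitin gene higher in shERK5; in the fit of the 2 groups alone, 1 prenylation enzyme fell in shMEK5. Leaving out 1 library gave the list counts 3 to 5 and 1 to 2 (ATG8 in shERK5, higher and lower), 0 to 1 (ATG8 in shMEK5, higher), 1 to 2 (STAT and IRF in shMEK5, lower), 0 to 1 (ligands in shMEK5, higher), 1 to 2 (receptors in each knockdown, higher), 1 to 2 (large GTPases in shMEK5, higher), 0 to 1 (prenylation in shMEK5, lower) and 1 to 2 (ubiquitin in shERK5, higher). Apart from the smaller sets tested, the causes were not tested. Depth limits Gbp5 and Iigp1 in shERK5 and shCTRL, where 3 reads or fewer per library were counted.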
